A study of Mus musculus and Ictidomys tridecemlineatus with 36 samples.

Results

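The 6 temporal identity genes *Pou2f1*, *Pou2f2*, *Ikzf1*, *Ikzf4*, *Casz1*, and *Foxn4* were examined among 21938 protein-coding genes of the mouse annotation. The genes were chosen by name, and all peaks of 5 mouse CUT&RUN lists were taken that lie within 1 kb of any annotated transcription start site (TSS) of these genes, or within the gene body plus 20 kb on either side (the locus). In all, 239 of 246656 peaks lay in the 6 loci, and 50 of them lay within 1 kb of a TSS of the gene itself. CUT&RUN maps histone marks and bound proteins by antibody-directed cleavage of chromatin. The lists come from whole retina of mice at postnatal day 2 (P2), where each biological replicate was a pool of retinas from 3 individuals, and the labels name no mutation or treatment. They rest on 2 libraries each for H3K4me3, H3K27ac, and H3K4me1, 8 for Otx2, 4 for Neurod1, and 2 for the IgG control, all from 2 biological replicates, so that the further Otx2 and Neurod1 libraries repeat the same replicates. The series also holds 13 lined ground squirrel (13LGS) retina, which was not analysed here.

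Temporal identity factors are transcription factors that set which cell types retinal progenitors can make at a given stage of development. Ikzf1 is known for early progenitor competence, Foxn4 for amacrine and horizontal cell development, and Pou2f1 and Pou2f2 for promoting cone fate. Ikzf4 is known for acting beside Ikzf1, and Casz1 for the mid to late stages that favour rods. H3K4me3 marks active or poised promoters, H3K27ac marks active promoters and enhancers, and H3K4me1 marks enhancers and the flanks of promoters, while Otx2 and Neurod1 are homeodomain and bHLH factors of photoreceptor precursors.

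Each peak has 1 fold enrichment over IgG and 1 −log10 q-value, both made by the authors on all libraries of a target together. There was thus no spread between replicates, read depth is unknown, and no test was made between genes. A gene without a peak had none at the authors' q-value threshold of 0.05, which does not show that the mark was absent. In whole tissue, fewer cells with a mark and less of the mark in each cell cannot be told apart.

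The sequences of 6 factor peaks are printed here because they lie at the elements on which the descriptions of *Pou2f1*, *Casz1*, and *Foxn4* turn. Each is 300 bases of the forward strand of GRCm38 (RefSeq), centred midway between the summit of the peak and the nearest match of the factor's own motif. Capitals mark matches on either strand of TAATCC, the Otx2 motif, and of CAGATG, a Neurod1 E-box, which do not overlap each other here. In the printed order they lie at chr1:165935393-165935692, chr4:148916133-148916432, chr4:148889144-148889443, chr4:148854318-148854617, chr5:114279511-114279810, and chr5:114264161-114264460.
*Pou2f1* intronic promoter, Otx2: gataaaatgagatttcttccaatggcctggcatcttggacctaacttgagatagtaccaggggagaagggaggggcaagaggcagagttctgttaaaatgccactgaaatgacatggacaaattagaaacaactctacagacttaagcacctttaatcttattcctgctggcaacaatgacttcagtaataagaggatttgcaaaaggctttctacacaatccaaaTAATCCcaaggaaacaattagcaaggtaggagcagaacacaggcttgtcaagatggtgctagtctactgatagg
*Casz1* intron, Otx2 and Neurod1: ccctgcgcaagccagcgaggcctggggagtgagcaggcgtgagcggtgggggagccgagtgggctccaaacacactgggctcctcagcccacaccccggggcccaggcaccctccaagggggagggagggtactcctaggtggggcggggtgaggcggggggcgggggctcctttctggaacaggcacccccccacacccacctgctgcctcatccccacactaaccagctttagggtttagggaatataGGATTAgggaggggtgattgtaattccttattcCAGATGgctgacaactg
*Casz1* internal TSS, Otx2: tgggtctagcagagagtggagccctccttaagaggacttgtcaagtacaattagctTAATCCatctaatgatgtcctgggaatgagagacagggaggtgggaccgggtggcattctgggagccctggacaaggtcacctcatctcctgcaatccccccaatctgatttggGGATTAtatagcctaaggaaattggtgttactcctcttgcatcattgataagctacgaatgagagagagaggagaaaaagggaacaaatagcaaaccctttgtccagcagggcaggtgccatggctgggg
*Casz1* intron, Neurod1 alone: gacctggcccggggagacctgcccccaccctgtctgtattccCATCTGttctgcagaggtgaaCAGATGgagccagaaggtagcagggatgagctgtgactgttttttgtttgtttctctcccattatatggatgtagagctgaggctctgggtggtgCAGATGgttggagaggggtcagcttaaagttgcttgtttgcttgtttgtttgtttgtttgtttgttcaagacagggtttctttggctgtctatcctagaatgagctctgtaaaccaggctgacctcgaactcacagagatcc
*Foxn4* upstream, Otx2: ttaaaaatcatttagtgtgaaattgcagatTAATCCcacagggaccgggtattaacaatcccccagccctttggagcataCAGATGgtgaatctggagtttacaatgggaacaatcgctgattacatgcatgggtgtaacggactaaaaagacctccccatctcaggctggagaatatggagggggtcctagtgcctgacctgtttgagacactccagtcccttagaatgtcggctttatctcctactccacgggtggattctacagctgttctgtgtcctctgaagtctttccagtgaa
*Foxn4* internal TSS, Neurod1: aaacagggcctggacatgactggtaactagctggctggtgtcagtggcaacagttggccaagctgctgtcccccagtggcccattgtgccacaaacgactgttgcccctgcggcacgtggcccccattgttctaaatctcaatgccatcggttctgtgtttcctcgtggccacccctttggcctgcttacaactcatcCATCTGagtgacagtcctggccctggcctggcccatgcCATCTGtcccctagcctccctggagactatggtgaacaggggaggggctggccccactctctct
In the *Pou2f1* and *Casz1* peaks of highest fold the nearest TAATCC match began 151 bp and 200 bp from the summit, and in the upstream *Foxn4* peak it began 241 bp away. The CAGATG in the upstream *Foxn4* sequence lies outside the Neurod1 peak there, which held no match. At the internal *Casz1* TSS, by contrast, matches began 74 bp before the Otx2 summit and 40 bp after it.

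All of the 6 genes had H3K4me1 within 1 kb of a TSS, and 5 of them, all but *Ikzf1*, had H3K4me3. Among all protein-coding genes, 63.6% had H3K4me1 and 56% had H3K4me3 there. H3K27ac was called at 4 of the 6 (*Pou2f1*, *Ikzf4*, *Casz1*, and *Foxn4*), beside 22.6% of all genes, and the same 4 genes carried all 3 histone marks, beside 19.9%. The H3K27ac call of *Foxn4* was a 2.32-fold peak at a non-coding internal TSS 10.7 kb from the one with H3K4me3, and it was lost with TSSs of protein-coding transcripts only, with a −log10 q of 5 or more, and with a fold of 2.5 or more. Otx2 was called within 1 kb of a TSS of those 4 genes, beside 51% of all genes, and Neurod1 at 2 of them, *Casz1* and *Foxn4*, beside 5.76%. Both Neurod1 calls were at internal TSSs of non-coding transcripts, and with TSSs of protein-coding transcripts only 0 genes had one. A call could come from any TSS of a gene, of which the members had from 4 (*Foxn4*) to 14 (*Pou2f1*). None of these shares was tested, and for H3K4me3, H3K4me1, and Otx2, which most genes had, the counts over 6 genes show nothing particular to the members.

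**Figure D1:**
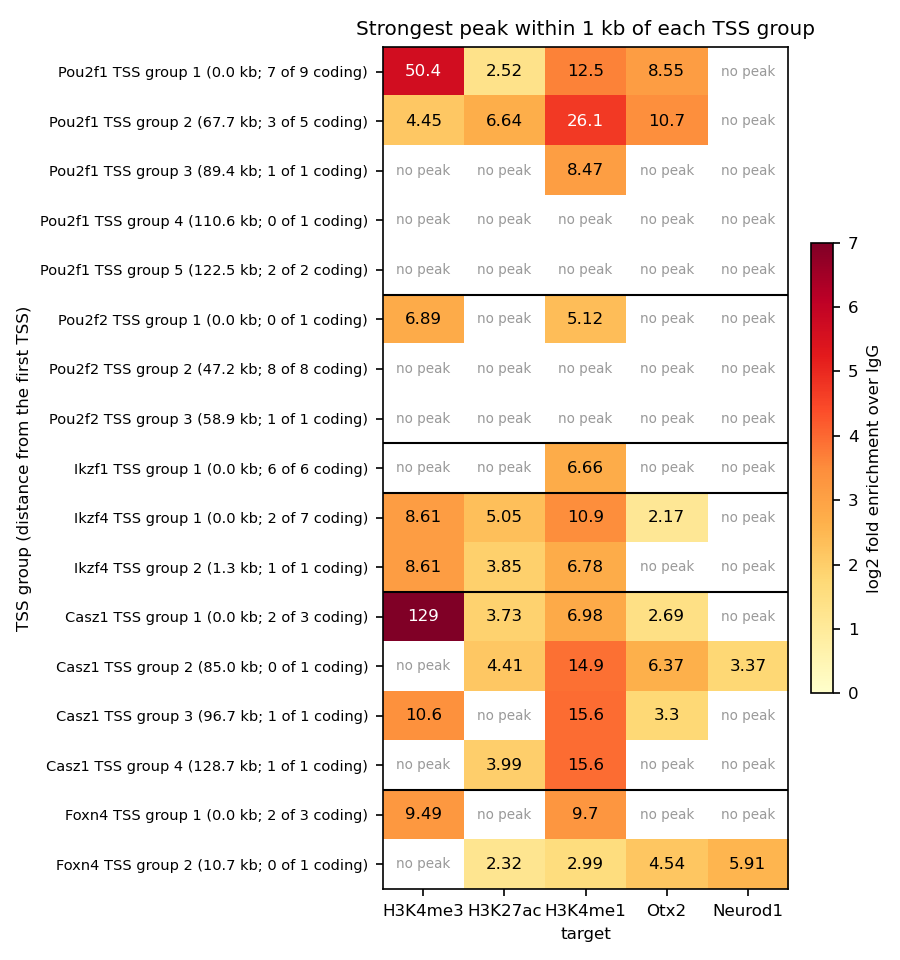
Fold enrichment over IgG of the strongest peak within 1 kb of each group of TSSs (rows, TSSs within 1 kb of each other joined, with the distance from the first TSS and the number of protein-coding transcripts) for each target (columns). Colour gives log2 fold from 0 to 7, white cells have no peak, a peak near several TSS groups is shown in each, and the summit of a wide peak can lie outside the window. H3K4me3 reached 129-fold at the first *Casz1* TSS, while no cell is filled at the coding TSS groups of *Pou2f2*.

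*Casz1*, which encodes a zinc finger factor, lies on chr4 from 148804429 to 148954889 on the plus strand and was the member with the strongest promoter and the most factor peaks. H3K4me3 at its first TSS was 129.3-fold over 4052 bp, from 148803781 to 148807832. Only 5 of 14069 H3K4me3 peaks, this one included, had as high a fold. The other H3K4me3 peak of the locus, 10.6-fold and 2441 bp wide, lay at a coding TSS 96.7 kb into the gene.

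H3K27ac was spread along the *Casz1* introns. The locus held 45 H3K27ac peaks that covered 63653 bp, or 33.4% of its 190.5 kb, against a median of 0.389% over all protein-coding genes. A locus with at least as many was found for 0.547% of genes and one with at least that cover for 0.150%. Single peaks had a median of 3.64-fold, beside 3.36-fold in the whole list, and a highest of 7.39-fold. One of them, 4.28-fold from 148809802 to 148821176, was 11375 bp wide, and 16 of 62930 H3K27ac peaks were at least that wide, this one included. H3K4me1 covered 76.1% of the locus in 27 peaks, and its widest peak, 15.6-fold, ran for 30648 bp from 148901716 to 148932363.

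Factor peaks were also dense at *Casz1*. Its locus held 31 Otx2 peaks and 10 Neurod1 peaks, where the median over all genes was 1 and 0. As many Otx2 peaks were found in 4 of the 21938 loci and as many Neurod1 peaks in 8, *Casz1* included. Scaled to length, the locus had 16.3 Otx2 and 5.25 Neurod1 peaks per 100 kb, and 0.634% and 0.784% of loci had at least these densities. Most of the 31 Otx2 peaks were weak: their median was 3.30-fold, below the list median of 3.54-fold, and the lowest was 2.17-fold.

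The highest Otx2 peak (15.9-fold, −log10 q 198.6) and the highest Neurod1 peak (12.7-fold, −log10 q 142.4) of *Casz1* lay at the same place in an intron, 112 kb from the first TSS. Their summits, at 148916183 and 148916187, were 4 bp apart. They lay between H3K27ac peaks that ended at 148915843 (7.39-fold) and began at 148916448 (6.43-fold). Of 29115 Otx2 peaks, 0.416% had at least this fold, and of 4744 Neurod1 peaks 2.21% did. The annotated antisense gene Gm15969, from 148913511 to 148914324, starts within 1 kb of both peaks. The printed sequence of this element, placed so as to reach the nearest TAATCC match, held 1 match of each motif. Neither motif had a match within 150 bp of the Otx2 summit or of the Neurod1 summit.

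A second *Casz1* element lay at an internal TSS, 85.0 kb from the first, whose only transcript is non-coding. There Otx2 was 6.37-fold, Neurod1 3.37-fold, H3K27ac 4.41-fold, and no H3K4me3 peak was called. The TSS also lay in a 21016 bp H3K4me1 peak of 14.9-fold, whose summit, where the fold was read, was 8434 bp away. At the first TSS, where H3K4me3 was highest, the Otx2 peak was only 2.69-fold and no Neurod1 peak was called. The other 8 Neurod1 peaks of the gene were intronic and between 2.51-fold and 5.19-fold. The strongest of these, with its summit at 148854460, had no Otx2 peak on it, and its printed sequence held 3 matches of CAGATG.

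**Figure D2:**
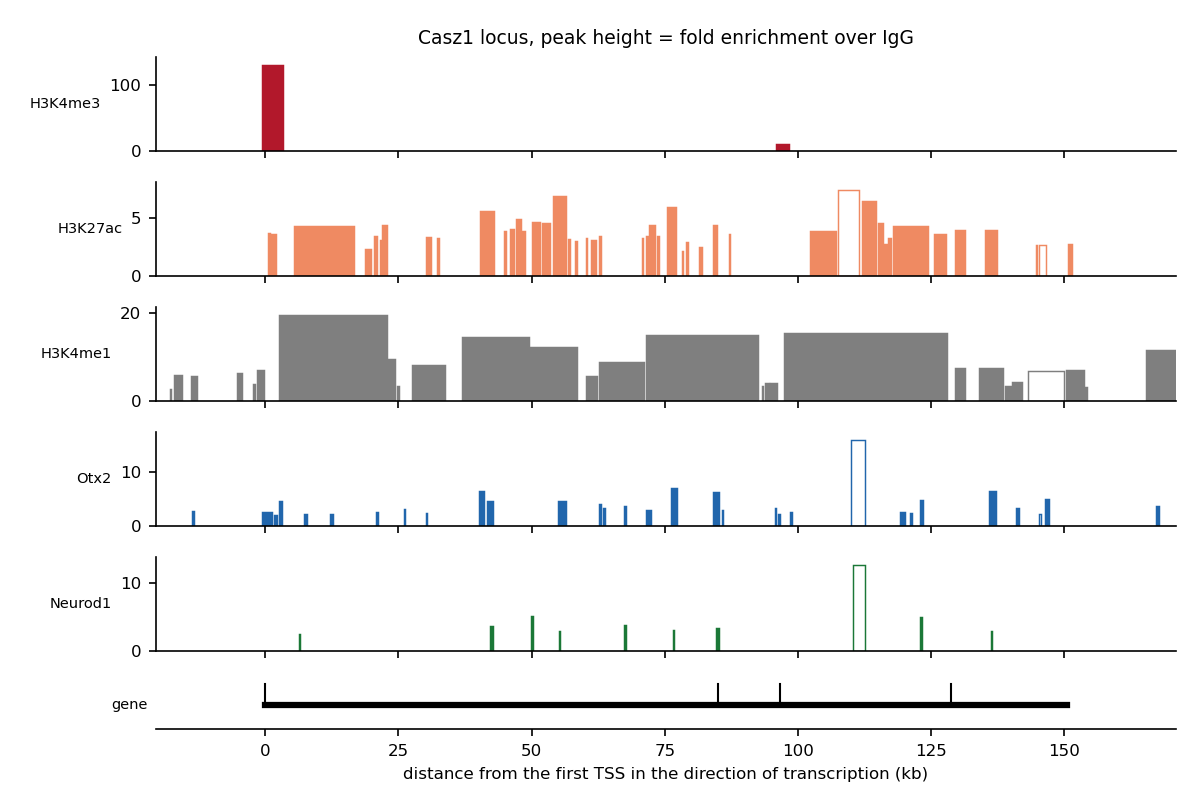
Peaks in the *Casz1* gene body plus 20 kb by distance from the first TSS in kb (horizontal axis), with the width of each bar the width of the peak and its height the fold enrichment over IgG (linear axes from 0, a scale per target). Open bars lie within 1 kb of a TSS of another gene and not of *Casz1*, and ticks on the gene line mark TSS groups. H3K4me3 stands at the first TSS, while the 45 H3K27ac, 31 Otx2, and 10 Neurod1 peaks run along the gene.

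*Foxn4*, a forkhead gene of amacrine and horizontal cell development, is short (19.6 kb, chr5 from 114254164 to 114273807 on the minus strand) but was the other member with Neurod1. Its 59.6 kb locus held 14 H3K27ac, 6 H3K4me1, 5 Otx2, 3 Neurod1, and 1 H3K4me3 peaks. Per 100 kb this was 23.5 H3K27ac peaks, close to the 23.6 at *Casz1*, and 5.03 Neurod1 peaks, where *Casz1* had 5.25. At least these densities were found at 0.538% and 0.830% of all loci. Otx2 was less dense, 8.38 peaks per 100 kb, which 6.45% of loci reached.

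The strongest H3K27ac and factor peaks of *Foxn4* lay apart from its first TSS. H3K4me3 there was 9.49-fold, below the list median of 13.5-fold, and no H3K27ac, Otx2, or Neurod1 peak lay within 1 kb of that TSS. The strongest H3K27ac (6.92-fold), Otx2 (8.60-fold), and Neurod1 (6.99-fold) peaks of the locus lay together upstream, with the Otx2 summit 5975 bp from the nearest TSS. The Neurod1 summit there was 55 bp from that of Otx2. A second upstream pair, 5.58-fold for Otx2 and 3.62-fold for Neurod1, had summits 41 bp apart. The H3K4me1 peak that spans both pairs was 9.70-fold and 11979 bp wide, and 0.191% of H3K4me1 peaks were at least that wide.

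Within *Foxn4*, Otx2 (4.54-fold) and Neurod1 (5.91-fold) overlapped in an intron, with summits 22 bp apart. This pair gave the gene its promoter calls for both factors, since the edge of each peak lay within 1 kb of a non-coding internal TSS at 114263120. The summits themselves were 1122 bp and 1144 bp from that TSS. The printed sequence held 2 CAGATG matches and no TAATCC.

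*Pou2f1*, which encodes a POU homeodomain factor, spans 137.5 kb on the minus strand of chr1, from 165865154 to 166002678, and has 14 annotated TSSs in 5 groups. Its first promoter and an intronic promoter 67.7 kb downstream carried peaks of the same targets at different folds. At the first, H3K4me3 was 50.4-fold over 3086 bp, H3K27ac 2.52-fold, and H3K4me1 12.5-fold. The summits of these H3K27ac and H3K4me1 peaks were 1164 bp and 2215 bp from the nearest TSS. At the intronic promoter, which starts 3 coding transcripts, H3K4me3 was 4.45-fold, and H3K27ac was 3.20-fold at a summit 35 bp from a TSS. Another H3K27ac peak there, 5.13-fold, had its summit 872 bp from the nearest TSS. The strongest H3K27ac (6.64-fold) and H3K4me1 (26.1-fold) peaks that reached into this promoter window had their summits outside it, 1627 bp and 1302 bp from the nearest TSS. Thus H3K4me3 was the higher at the first promoter, and H3K27ac and H3K4me1 were the higher at and beside the intronic one. Only 0.408% of H3K4me1 peaks had at least the fold of the intronic peak.

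Otx2 was called at both *Pou2f1* promoters. The intronic peak (10.7-fold, −log10 q 76.7) was the strongest of the gene, with its summit 457 bp upstream of the nearest TSS, and 2.03% of Otx2 peaks had at least this fold. The peak at the first promoter was 8.55-fold (−log10 q 107.5), with its summit 512 bp upstream, and it overlapped the start of the divergent lincRNA Gm26665. As at *Casz1*, the intronic summit, at 165935468, lay between H3K27ac peaks, the one ending at 165934977 and the other starting at 165935690. The other Otx2 peaks of the locus were 2.66-fold in an intron near the first TSS and 2.75-fold downstream of the gene. No Neurod1 peak was called in the *Pou2f1* locus. The next TSS group, 89.4 kb into the gene and of 1 coding transcript, had H3K4me1 alone (8.47-fold), and the remaining 2 groups had no peak.

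**Figure D3:**
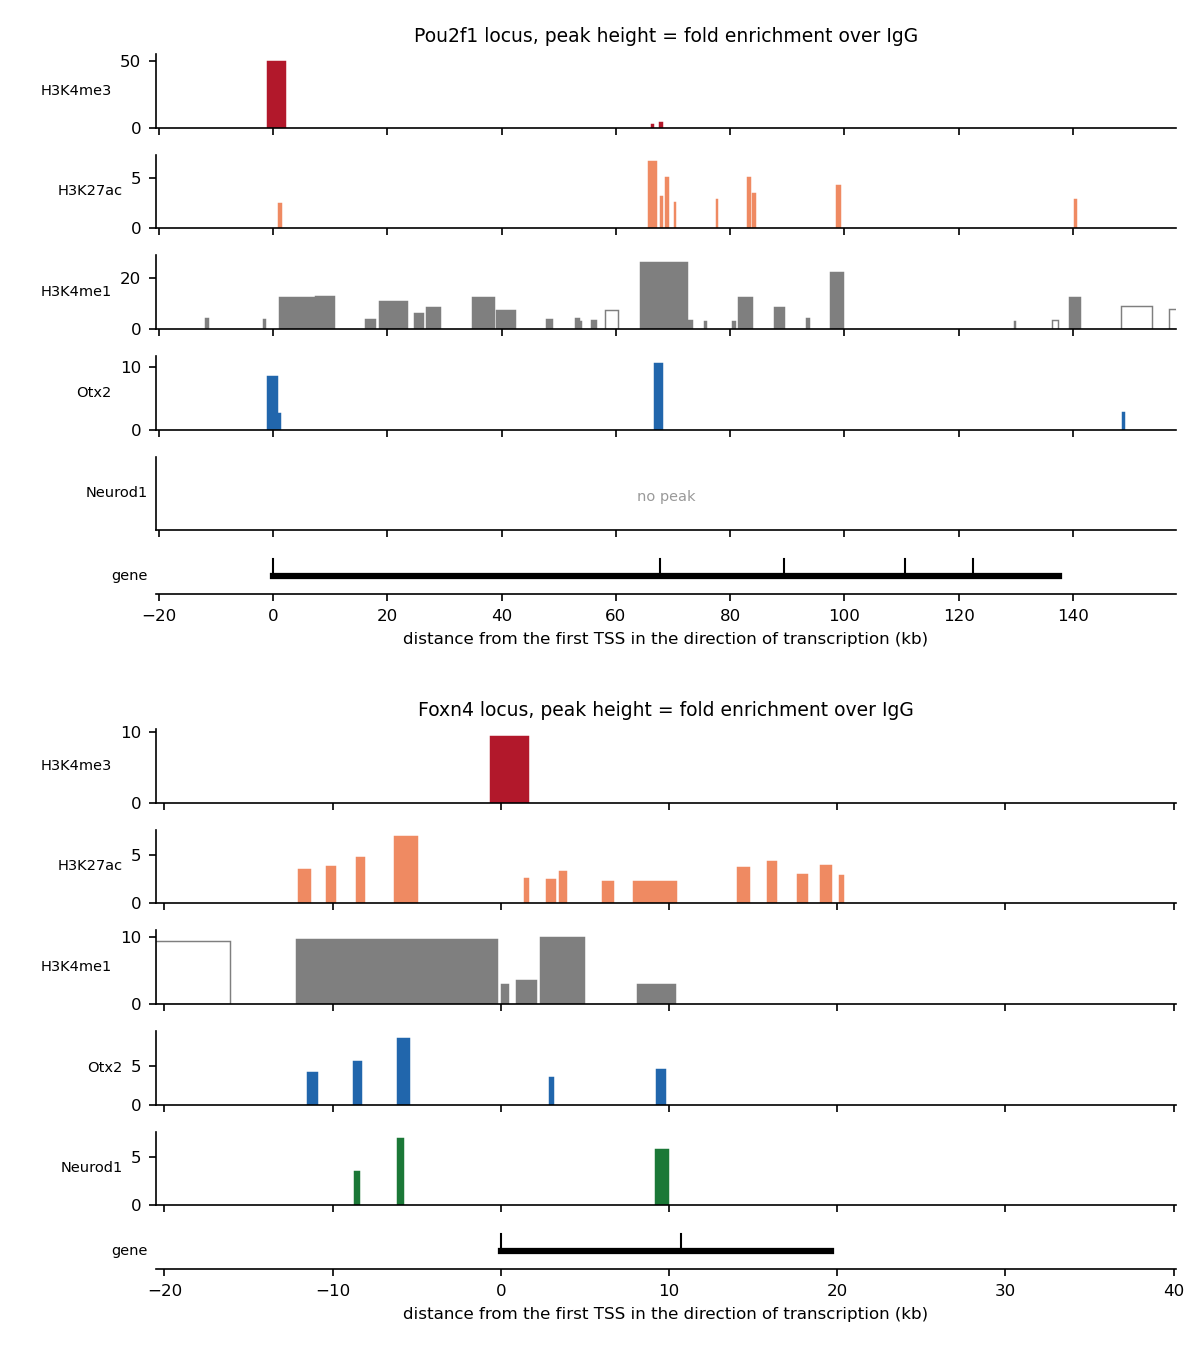
Peaks in the *Pou2f1* (top) and *Foxn4* (bottom) gene bodies plus 20 kb by distance from the first TSS in kb, drawn as bars as wide as the peak and as high as its fold enrichment over IgG (linear axes from 0, a scale per target). Open bars lie within 1 kb of a TSS of another gene only, and ticks on the gene line mark TSS groups. In *Pou2f1* the highest H3K27ac, H3K4me1, and Otx2 peaks stand at the second TSS group, and in *Foxn4* the highest H3K27ac, Otx2, and Neurod1 peaks stand upstream of the gene.

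*Pou2f2*, the paralog of *Pou2f1*, lies on chr7 from 25087344 to 25179726 on the minus strand and had little at its coding promoters. Its 9 coding transcripts start from 2 TSS groups, 47.2 kb and 58.9 kb into the gene, and no peak of the 5 targets lay within 1 kb of either. Of all protein-coding genes, 32.5% had no peak of any target at a TSS of a protein-coding transcript. The H3K4me3 promoter call of *Pou2f2* came from its first TSS, the start of 1 non-coding transcript, where H3K4me3 was 6.89-fold over 1982 bp and the H3K4me1 peaks were 5.12-fold and 3.63-fold.

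The locus of *Pou2f2* held 4 H3K4me3, 4 H3K27ac, 21 H3K4me1, and 3 Otx2 peaks. The highest H3K4me3 peaks (21.8-fold and 17.2-fold), the highest H3K27ac peak (4.48-fold), and the highest Otx2 peak (4.55-fold) were all at starts of the neighbouring genes *Grik5* and *Zfp574*. Inside the gene the Otx2 list had 1 peak, 3.26-fold, with its summit 5264 bp downstream of the first TSS in an H3K4me1 peak of 8.18-fold. That window held 4 CAGATG matches and 1 TAATCC within 150 bp of the summit. The strongest H3K4me1 peak, 13.1-fold and 6990 bp wide, lay in an intron over the start of the lincRNA D930028M14Rik.

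*Ikzf1*, the founding member of the Ikaros zinc finger family, lies on chr11 from 11685003 to 11772926 on the plus strand and had the fewest peaks. There was no H3K4me3, H3K27ac, or Neurod1 peak anywhere in its 127.9 kb locus. H3K4me1 alone was called at its TSSs, as a pair of peaks of 4.15-fold and 6.66-fold, and another H3K4me1 peak of 2.39-fold lay in an intron. Both peaks of the pair also lay within 1 kb of the start of Gm11999, a non-coding gene on the minus strand. A promoter with H3K4me1 but neither H3K4me3 nor H3K27ac was found at 10.6% of all genes. The single Otx2 peak of the locus was 8.02-fold (−log10 q 46.7), stood on no histone peak, and lay 15858 bp past the end of *Ikzf1* within the next gene, *Fignl1*, 12677 bp from the nearest *Fignl1* TSS.

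*Ikzf4*, another Ikaros family member, lies on chr10 from 128630843 to 128645991 on the minus strand and is the shortest of the 6 genes. At its promoter H3K4me3 was 8.61-fold, H3K27ac 5.05-fold, and H3K4me1 10.9-fold. These H3K27ac and H3K4me1 peaks had their summits 740 bp and 741 bp upstream of the nearest TSS. The strongest promoter peaks of these marks with summits inside the gene were 3.85-fold and 6.78-fold. The Otx2 peak at this promoter was the weakest of the 4 promoter calls, 2.17-fold with a −log10 q of 1.83. Like those upstream summits, it lay over the divergent lincRNA Gm26876. The strongest H3K4me3 (56.9-fold) and Otx2 (5.41-fold) peaks of the locus were at the start of *Rps26*, a ribosomal protein gene downstream. *Ikzf1* and *Ikzf4* thus differed at their promoters, with 1 and 3 of the histone marks.

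**Figure D4:**
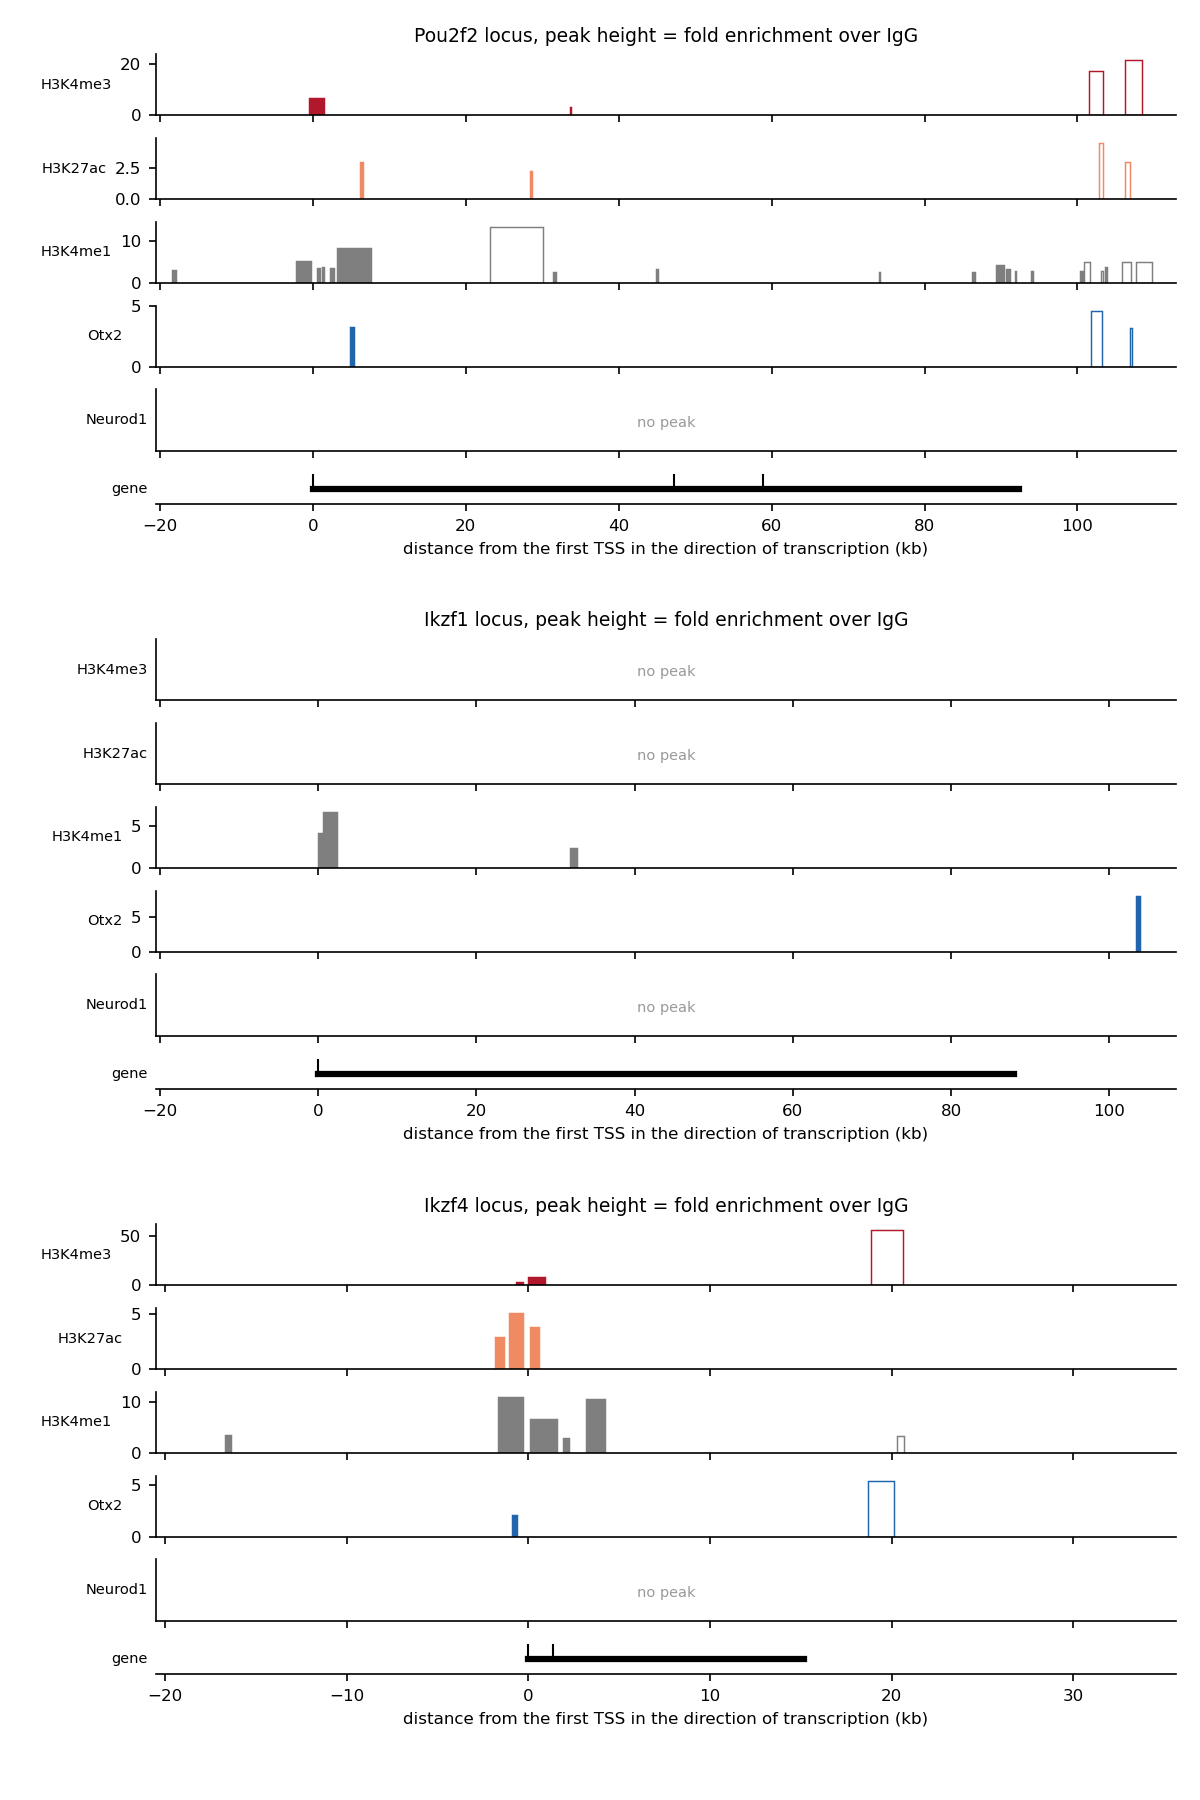
Peaks in the *Pou2f2* (top), *Ikzf1* (middle), and *Ikzf4* (bottom) gene bodies plus 20 kb by distance from the first TSS in kb, drawn as bars as wide as the peak and as high as its fold enrichment over IgG (linear axes from 0, a scale per target). Open bars lie within 1 kb of a TSS of another gene only, and ticks on the gene line mark TSS groups. The highest H3K4me3 and Otx2 peaks of *Pou2f2* and *Ikzf4* are open bars, and *Ikzf1* has H3K4me1 and a single Otx2 peak.

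Over the 6 loci, the order of H3K27ac density was *Casz1* (23.6 peaks per 100 kb), *Foxn4* (23.5), *Pou2f1* (5.63), *Ikzf4* (5.44), *Pou2f2* (3.02), and *Ikzf1* (none), with a median of 1.06 over all genes. Whether neighbours in this order differ beyond replicate error could not be judged. H3K4me3 peaks were not denser at *Casz1*, with 1.05 per 100 kb against a median of 1.35 over all genes. Otx2 was called somewhere in all 6 loci, beside 69.9% of all loci, and Neurod1 in 2, beside 19.4%.

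**Figure D5:**
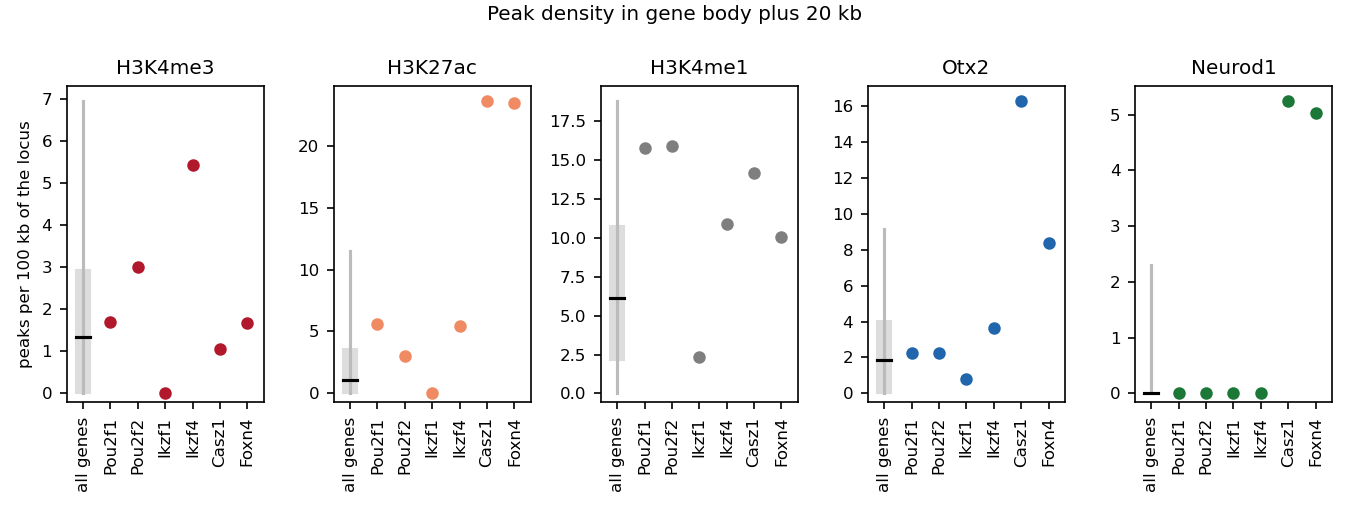
Peaks per 100 kb of gene body plus 20 kb (vertical axes, a scale per target) for each of the 6 genes (points) and for all 21938 protein-coding genes (grey line from percentile 5 to percentile 95, grey box from the lower to the upper quartile, black line the median). Each point is 1 value from the joint peak list. *Casz1* and *Foxn4* lie above the grey line for H3K27ac and Neurod1, and *Ikzf1* lies at 0 for H3K4me3, H3K27ac, and Neurod1.

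When elements were classed by histone peaks, the 6 loci held 13 promoter elements with H3K4me3. Of these, 8 lay within 1 kb of a TSS of the member itself and 3 only at a TSS of another gene. Another 66 elements with H3K27ac but not H3K4me3 were taken as active enhancers, and 54 with neither of these but with H3K4me1 as poised ones. Of the active enhancers 43 were at *Casz1* and 13 at *Foxn4*. Otx2 overlapped 15 of the 43 and 5 of the 13, or 34.9% and 38.5%, where 11.0% of all active enhancers in the list did. Neurod1 overlapped 10 and 3 of them, or 23.3% and 23.1%, where 3.20% did. A factor peak counts at each enhancer that it overlaps. The 10 at *Casz1* came from 9 Neurod1 peaks, since the one with its summit at 148916187 met the H3K27ac peaks on both sides, as the Otx2 peak there did. The 10 active enhancers of *Pou2f1*, *Pou2f2*, and *Ikzf4* overlapped neither factor. The Otx2 peaks of these 3 genes stood on H3K4me3, with or without other marks, or on H3K4me1 alone. Of these peaks, 2 at *Pou2f1*, 2 at *Pou2f2*, and 1 at *Ikzf4* also overlapped H3K27ac that met H3K4me3. The 2 at *Pou2f2* lay at starts of the neighbouring genes *Grik5* and *Zfp574* and not at *Pou2f2* itself. The other Otx2 peak of the *Ikzf4* locus lay at the start of *Rps26*. The strongest H3K27ac peak of *Pou2f1* (6.64-fold), which Otx2 overlapped, left the active class only through a 3.00-fold H3K4me3 peak with a −log10 q of 1.65. Active enhancers of *Casz1* were wide, with a median of 721 bp beside 423 bp in the whole list, and the part of width in these shares was not tested.

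Of the 46 Otx2 peaks in the loci, 30 (65.2%) overlapped H3K27ac and 12 (26.1%) H3K4me3, where 36.2% and 43.3% of the whole Otx2 list did. Most of the 30 were at *Casz1* (20) and *Foxn4* (5). Of the 13 Neurod1 peaks, 12 (92.3%) overlapped H3K27ac and none H3K4me3, where 52.3% and 25.6% of the whole Neurod1 list did. Otx2 overlapped 11 of the 13, or 84.6%, beside 82.1% of all Neurod1 peaks, with a median distance between summits of 46 bp in the loci and 66 bp in the list.

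Matches of TAATCC within 150 bp of the summit were found in 12 of the 46 Otx2 peaks (26.1%), and in 18.2% of all Otx2 peaks. CAGATG was found in 8 of the 13 Neurod1 peaks (61.5%), and in 52.1% of all Neurod1 peaks. The 13 Neurod1 windows included 3 with TAATCC (23.1%, beside 14.2% of the list), and the 46 Otx2 windows included 9 with CAGATG (19.6%, beside 22.2%). A match is a description of the letters and not of binding. The highest Otx2 peaks of *Pou2f1*, *Casz1*, *Foxn4*, and *Ikzf1* had no TAATCC in this window, and the first 3 had one elsewhere in the peak.

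The genes nearest to each member in the log2 fold of the strongest promoter peak over the 5 targets were found by Euclidean distance, with 0 for a target without a peak. For *Pou2f1* these were *Nr2f1* (distance 0.643), *Pot1a* (0.674), and *Ppp1r12a* (0.756). *Casz1* was nearest to *Lrba* (0.758), *Trib2* (0.800), and *Pcf11* (0.887), and *Foxn4* to *Slc43a2* (0.663), *Apobec3* (0.703), and *Pygm* (0.772). The strongest peaks of *Pou2f1*, of *Casz1*, and of *Foxn4* lay at different TSSs of the gene, so these patterns are not those of a single promoter. *Ikzf4* was nearest to *Krba1* (0.336), *Tsc22d3* (0.377), and *Hsf3* (0.378), and *Pou2f2* to *Arfgap3* (0.0660), *Jph4* (0.0807), and *Cd274* (0.0869). *Ikzf1* had H3K4me1 alone, a pattern of presence it shared with 1919 other genes, and its nearest were *Ggt1*, *C1qtnf2*, and *Lgi1*, all within 0.00224.

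Among other temporal genes, H3K4me3, H3K4me1, and Otx2 were called at the promoters of 6 of 6 early genes (*Onecut1*, *Onecut2*, *Nr2f1*, *Foxp1*, *Sox11*, *Meis1*) and 6 of 6 late genes (*Nfia*, *Nfib*, *Nfix*, *Sox8*, *Sox9*, *Lhx2*). H3K27ac was called at 3 of the early and 4 of the late genes, and Neurod1 at 2 early genes, *Foxp1* (3.98-fold) and *Sox11* (3.17-fold), and at none of the late ones. Over all protein-coding genes, promoter shares were 56% for H3K4me3, 63.6% for H3K4me1, 51% for Otx2, 22.6% for H3K27ac, and 5.76% for Neurod1. The strongest H3K4me3 promoter peak had a median of 49.3-fold over the early and 44.7-fold over the late genes. The members' 129-fold (*Casz1*) and 50.4-fold (*Pou2f1*) lay above both medians, and *Foxn4*, *Ikzf4*, and *Pou2f2* lay below both. In the loci, the median Otx2 density was 7.40 peaks per 100 kb over the early and 6.45 over the late genes. *Casz1* had 16.3 and *Foxn4* 8.38. The H3K27ac medians were 0.078 and 4.085, but the *Meis1* locus held 43 H3K27ac and 18 Otx2 peaks, beside 45 and 31 at *Casz1*. Neurod1 was called in the loci of 4 early and 2 late genes, beside 19.4% of all loci. Of the 7 paralogs, 4 had promoter H3K4me3 (*Ikzf2*, *Ikzf5*, *Foxn2*, *Foxn3*), close to the share over all genes. *Pou2f3* (2.65-fold) and *Ikzf3* (2.95-fold) shared with *Ikzf1*, and with 10.6% of all genes, a promoter with H3K4me1 alone, while *Foxn1* had no promoter peak. The *Foxn3* locus held 41 H3K27ac and 14 Otx2 peaks. For the 6 retinal progenitor and 5 photoreceptor precursor markers described next, the median Otx2 density was 11.4 and 10.9 peaks per 100 kb. Their H3K27ac medians were 11.5 and 8.38, and Neurod1 was called in 1 and 5 of these loci.

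The tissue label was checked by promoter H3K4me3 at marker genes. It was called at 6 of 6 retinal progenitor, 5 of 5 photoreceptor precursor, 3 of 4 amacrine and horizontal, and 3 of 3 ganglion cell markers, and at 0 of 6 microglial, 0 of 3 lymphocyte, and 0 of 4 markers of tissues outside the eye. Among all protein-coding genes 56% had it, and none of these counts was tested. The ganglion cell and the amacrine and horizontal markers reached at most 8.59-fold and 12.5-fold. The median over all genes with such a peak was 17.5-fold. Of 5 endothelial markers 1 had promoter H3K4me3, *Kdr* (55.2-fold). The other 4 had H3K4me1 alone, as *Ikzf1* and 10.6% of all genes did. The amacrine and horizontal marker *Lhx1* (5.08-fold) and *Myod1* (2.675-fold), a marker of tissues outside the eye, also had H3K4me1 alone. The microglial and lymphocyte markers had no H3K4me1 promoter peak. Their part in the *Ikzf1* values was not tested.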

How the data were processed

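CUT&RUN peak lists of P2 mouse retina were used for H3K4me3, H3K27ac, H3K4me1, Otx2, and Neurod1. The authors trimmed reads with cutadapt 3.5 and Trim Galore 0.6.4, aligned them to GRCm38 with Bowtie2, filtered them with SAMtools 1.12, removed duplicates with UMI-tools, and called peaks with macs2 jointly over the libraries of a target against IgG, leaving out mitochondrial and blacklisted regions. The fold enrichment of a peak is a ratio to IgG as deposited. Its significance is the deposited −log10 q-value. Neither was rescaled. Otx2 libraries of more than one antibody were called as one list. A list pools all libraries, so there was no replicate spread, no test, and no replicate that could be left out. The 13LGS lists were not used here, since no 13LGS annotation was in hand, and H3K27me3 and H3K9me3 were not analysed here.

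TSSs and gene bodies came from GENCODE release M21, and sequences from GRCm38.p6. Overlap meant at least 1 bp shared. Tables were handled with pandas 2.3.3 and numpy 2.4.6 under Python 3.11.15, figures were drawn with matplotlib 3.10.9, and the overlap code, checked against bedtools 2.31.1 on 1500 simulated intervals, gave 0 differences. All 6 members were described, with their factor peaks and strongest promoter peaks, beside the 3 genes nearest in promoter pattern and lists of temporal genes, paralogs, and cell type markers. The members, the lists, and the alternatives were chosen with earlier results of these data known.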

Additional observations from a re-analysis of the deposited data

How the results depend on the processing

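Of 89 recomputed counts, 79 stayed within 1.5 times the reported count. Promoter calls of the factors changed with the TSSs used and with the window. Within 500 bp of a TSS, Otx2 was called at 2 genes in place of 4 (*Pou2f1* and *Casz1*) and Neurod1 at 1 in place of 2 (*Casz1*). With the summit required in the 1 kb window Neurod1 was called at 1 gene (*Casz1*), and with TSSs of protein-coding transcripts only at 0. H3K4me3 peaks in the loci rose from 13 to 22 with 50 kb on either side. When peaks needed a −log10 q of 5 or more, the loci held 41 in place of 76 H3K27ac peaks, 30 in place of 46 Otx2 peaks, and 36 in place of 66 active enhancers. Within 75 bp of the summit, TAATCC was found in 4 in place of 12 Otx2 peaks and CAGATG in 3 in place of 8 Neurod1 peaks. A search of the whole peak, added after seeing the data, found 18 and 8.

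The lists hold no depth and no replicate values, so how far a weak peak, such as that of Otx2 at *Ikzf4*, would recur could not be judged. No paired analysis was possible because each list holds 1 value per peak over all libraries.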
